A study of Mus musculus with 14 samples.

Results

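Solute carriers are membrane transporters that move nutrients, ions and metabolites into cells and between organelles. The genes described here are the 173 symbols of the deposited normalized table, of 10321 in all, that consist of Slc and a family number. They were measured in dendritic cells (DCs) of mouse lymph nodes that had or had not been marked by contact with a T cell. The count table holds 369 such symbols, and the other 196 lie outside the normalized table. Members were grouped by substrate, with glucose, amino acids, nucleosides, metals and mitochondrial metabolites foremost, and 1 class collects symbols that name no carrier.

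Each solute carrier family groups proteins of related sequence. Plasma membrane members set which sugars, amino acids and ions a cell can take up, lysosomal members release what has been digested, and the Slc25 family connects the cytosol with the mitochondrial matrix. In DCs, glucose and amino acid uptake feed the metabolic shift that accompanies maturation, the cystine carrier Slc7a11 supplies glutathione synthesis, and Slc11a1 withdraws metals from phagosomes, chiefly in macrophages.

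LIPSTIC is a labelling method in which a sortase enzyme on the T cell ligand CD40L transfers a biotin tag to CD40 on the partner cell. Of the 14 libraries, 6 were from biotin-positive and 6 from biotin-negative endogenous DCs of Cd40G5/G5 recipients, whose genotype label reads G5-Cd40+/+ and whose CD40 accepts the tag. Another 2 were from DCs of Cd40-/- mice, here called Cd40-null. All mice were C57BL/6, and the sorted cells were MHC-II high, CD11c+ (CD11c intermediate in the population label), CD11b+ and XCR1- cells of the popliteal node, at 150 cells a library. All recipients had received 500000 DCs per footpad pulsed with the ovalbumin peptide OVA323-339. After 18 hours 300000 OT-II CD4+ T cells followed by vein, 300 nmol biotin-LPETG was given per footpad at 46 hours after the T cells, and nodes were taken at 48 hours. In the biotin groups the transferred DCs were Cd40G5/G5 and the T cells carried the sortase fusion through CD40lgSrtA/Y with CD4-Cre. In the Cd40-null group the recipient genotype, the transferred DCs and the T cells (both wild type) differ together, so their effects cannot be told apart. Whether each library stands for its own mouse is not in the labels, and the tests therefore reflect library-to-library spread, which may be technical. In bulk libraries, fewer cells of a type and less RNA per cell cannot be told apart.

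Library totals were 1.45e+07 to 3.33e+07 counts in biotin-positive, 1.68e+07 to 2.86e+07 in biotin-negative and 1.97e+07 to 2.38e+07 in Cd40-null libraries. Genes with at least 1 count numbered 13090 to 13455 in biotin-positive libraries, against 14225 to 15742 in biotin-negative and 13113 and 13596 in Cd40-null libraries. Levels below are CPM, counts scaled to a common size of the TMM-corrected library total. Cd40 itself was at 852 to 1309 CPM in biotin-positive, 386 to 598 CPM in biotin-negative, and 53.3 and 74.2 CPM in Cd40-null libraries. All 12 DC markers were detected in every group, and between the biotin groups 5 of them were lower and 1 higher in biotin-positive libraries. Of all genes tested between the biotin groups, 3.7% were called higher and 4.05% lower, and the marker counts here stand beside these shares. Flt3 was at 741 CPM or more in every library, whereas the antigen presentation gene H2-Aa, of the sorted MHC-II, averaged 442 CPM in biotin-positive, 1776 CPM in biotin-negative and 951 CPM in Cd40-null libraries. H2-Ab1 averaged 230 CPM in biotin-positive, 1245 CPM in biotin-negative and 498 CPM in Cd40-null libraries, and Itgax (CD11c) 55.5 CPM in biotin-positive, 139 CPM in biotin-negative and 99.6 CPM in Cd40-null libraries. Itgam, which encodes the sorted CD11b, averaged 1.91 CPM in biotin-positive, 25.3 CPM in biotin-negative and 14.7 CPM in Cd40-null libraries. The summed level of 28 monocyte and macrophage markers was 176 to 354 CPM in biotin-positive, 421 to 1944 CPM in biotin-negative, and 513 and 851 CPM in Cd40-null libraries. Mrc1 was at 0 in every biotin-positive library and in both Cd40-null libraries, and at 0 to 13.2 CPM in biotin-negative libraries. The 6 Langerhans cell markers summed to 1531 to 1996 CPM in biotin-positive, 433 to 867 CPM in biotin-negative, and 1074 and 1421 CPM in Cd40-null libraries. Other marker lists also did not overlap between the biotin groups. For summed T cell markers the biotin-positive range was 328 to 463 CPM and the biotin-negative range 474 to 793 CPM. Most of this sum came from Il7r (mean 282 against 485 CPM) and Il2ra (42.3 against 96.7 CPM). Cd4, Cd8a, Icos and Gata3 also averaged lower in the biotin-positive group. Every other T cell marker averaged higher there, Cd3e (1.47 against 0.575 CPM) and Lck (6.44 against 2.80 CPM) among them. The sum therefore does not show less T cell RNA in that group. For NK cell markers the biotin-positive range was 39.8 to 73.1 CPM and the biotin-negative range 152 to 246 CPM. Most of this sum came from Klrk1 (mean 42.9 against 143 CPM) and Klrd1 (5.89 against 36.9 CPM). Of 5 tested NK cell markers, 2 were called lower and 0 higher. Every other NK cell marker averaged 0.540 CPM or less in both biotin groups, some higher and some lower in biotin-positive libraries. The sum therefore does not show less NK cell RNA in the biotin-positive group. Plasmacytoid DC markers summed to 98.3 to 254.0 CPM in biotin-positive and 254.6 to 568.2 CPM in biotin-negative libraries. The largest difference in that list was that of Spib (mean 74.4 against 290 CPM), and 1 of 7 tested markers was called lower and 0 higher. Type 1 DC markers summed to 357 to 606 CPM in biotin-positive and 184 to 323 CPM in biotin-negative libraries. That sum was mostly Irf8 (mean 437 against 191 CPM), and 1 of 7 tested markers was called higher and 0 lower. Xcr1 (2.00 against 3.09 CPM) and Batf3 (40.9 against 47.2 CPM) averaged lower in biotin-positive libraries. Cd40-null libraries held 275 and 537 CPM of T cell, 134 and 164 CPM of NK cell, 342 and 406 CPM of plasmacytoid DC and 404 and 411 CPM of type 1 DC markers.

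Summed over all 173 members, transport transcripts made up nearly the same amount of each library: 7989 to 8980 CPM in biotin-positive, 7985 to 8517 CPM in biotin-negative, and 8066 and 8418 CPM in Cd40-null libraries. Between 166 and 170 members were detected in a biotin-positive library, 167 to 172 in a biotin-negative one, and 169 in each Cd40-null one. Per kilobase of the longest annotated transcript, and averaged over all libraries, the most abundant members were the ADP/ATP carrier Slc25a5 (194 CPM per kb), the basic amino acid carrier Slc25a29 (164) and the phosphate carrier Slc25a3 (161), all of the mitochondrial family. The hexose carrier Slc2a6 (135 CPM per kb) and the lysosomal carrier Slc46a3 (104) came next. Slc25a5 also has an annotated pseudogene, Slc25a5-ps, for which no count was used here, so its level is uncertain to the extent that their reads are shared.

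Between biotin-positive and biotin-negative DCs, 20 of the 173 members passed the test, 10 higher and 10 lower. This comparison asks how DCs that received the tag differ from DCs of the same experiment that did not. The share of members called was 11.6%, against 7.75% of the 14217 genes tested (3.7% called higher and 4.05% lower), in edgeR's quasi-likelihood test at a Benjamini-Hochberg false discovery rate of 0.05. The median log2 fold change was -0.05 over members and -0.03 over all genes. A positive log2 fold change was found for 77 of the 173 members and for 6754 of the 14217 genes tested. The counts by class below stand beside these shares. Called members were chosen by these same values, so statements below on whether their libraries overlap are descriptions and add no support. Higher members were led by the mitochondrial basic amino acid carrier Slc25a29, the anion exchanger Slc4a2 and the taurine carrier Slc6a6. Lower members were led by the cystine carrier Slc7a11, the phagosomal metal carrier Slc11a1 and the mitochondrial phosphate carrier Slc25a3. With the number of detected genes, the macrophage marker level or the Langerhans cell marker level as a covariate in edgeR, 0 members were called (23, 23 and 14 had an unadjusted p under 0.05), and so were only 11, 41 and 0 of all genes. Adjusting instead for the mean log2 CPM of the T cell markers left 8 members called (5 higher and 3 lower). The macrophage covariate was also a mean log2 CPM, and the Langerhans covariate was the log2 of the summed level. The T cell covariate was 0.017 to 1.19 in biotin-positive and -0.57 to -0.039 in biotin-negative libraries, the reverse of the summed T cell levels. The macrophage covariate was 0.003 to 1.20 in biotin-positive and 1.52 to 4.01 in biotin-negative libraries. Each covariate separated the biotin groups without overlap, and the part of the covariates in the differences was not tested.

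**Figure D1:**
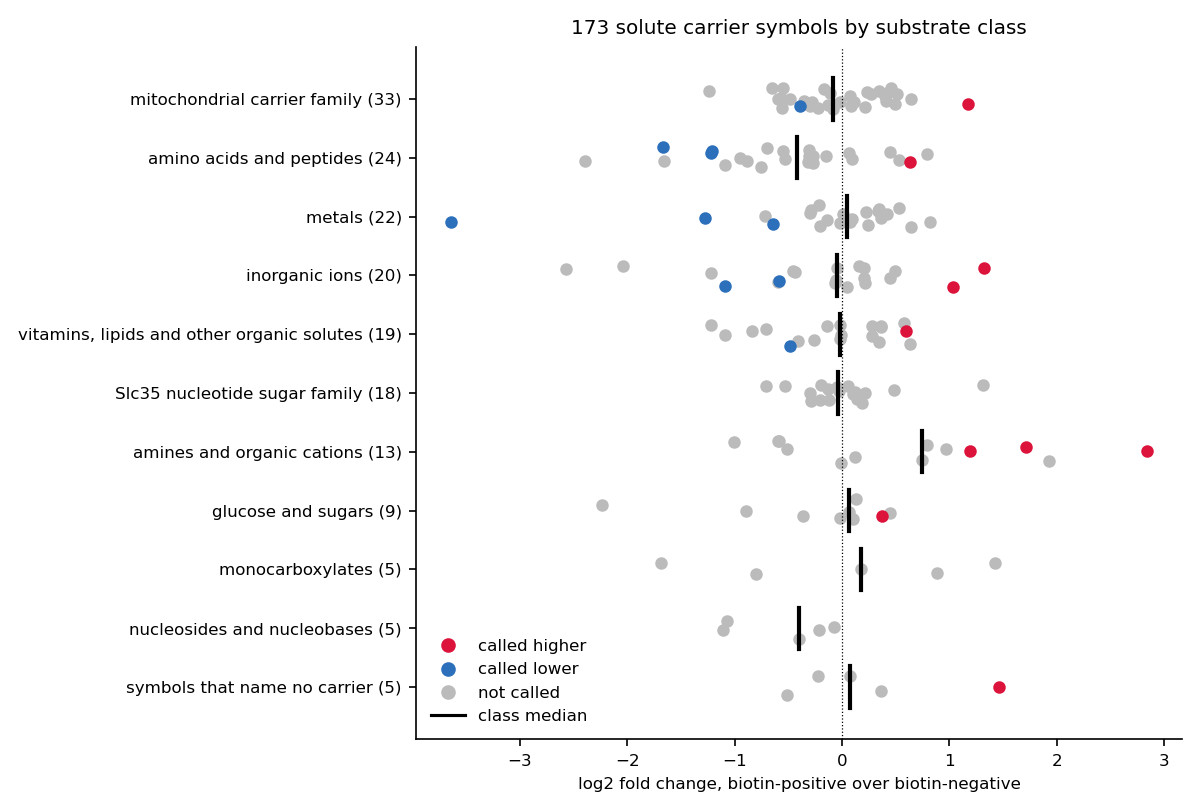
Each point is the log2 fold change of 1 of the 173 members between biotin-positive and biotin-negative libraries (x axis), in rows by substrate class with the number of members in parentheses; the black bar is the class median, red points were called higher and blue points lower. The amines and organic cations have a median of 0.74 and the amino acid and peptide carriers one of -0.42, while the mitochondrial family (-0.08) and the Slc35 family (-0.04) sit near 0.

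Of the 9 glucose and sugar carriers, 1 was higher in biotin-positive libraries and 0 lower. This is 11.1% of them, against 7.75% of all genes tested, and the class median log2 fold change was 0.06. The member that passed was Slc2a6 (GLUT6), a hexose carrier of intracellular membranes found in immune cells. Its level ran from 280 to 385 CPM (median 307) in biotin-positive libraries, from 208 to 290 CPM (median 241) in biotin-negative libraries, and was 299 and 333 CPM in the Cd40-null libraries. The biotin groups thus overlapped at one edge, the change was 1.30-fold (log2 0.38 ± 0.11 SE, adjusted p = 0.0375), and the call was lost in 13 of 28 alternative settings and turned round in 1 more, the Langerhans covariate. The basal glucose carrier Slc2a1 (GLUT1) averaged 27.1 ± 8.20 CPM in biotin-positive libraries against 19.9 ± 6.93 CPM in biotin-negative ones (SD, n = 6 each) and was not called. Slc2a3 (GLUT3), a high-affinity glucose carrier, was scarce at 1.50 ± 2.17 CPM in biotin-positive libraries against 7.03 ± 5.56 CPM in biotin-negative ones, and its adjusted p was 0.297. Slc50a1, a sugar carrier of the SWEET family, averaged 36.7 ± 4.01 CPM in biotin-positive libraries against 33.6 ± 5.43 CPM in biotin-negative ones and was also not called.

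Of the 24 amino acid and peptide carriers, 3 were lower and 1 higher in biotin-positive libraries. This is 16.7% of them, against 7.75% of all genes tested. In this class 18 had a negative and 6 a positive log2 fold change, and the class median was -0.42. Of the 14217 genes tested, 6754 had a positive log2 fold change. Slc7a11 (xCT; GRCm38 chromosome 3, 49892526 to 50443614, minus strand) exchanges cystine for glutamate and thereby feeds glutathione synthesis. Its level was 45.7 to 84.3 CPM (median 70.6) in biotin-positive libraries, against 114 to 209 CPM (median 153) in biotin-negative libraries, and 150 and 161 CPM in Cd40-null libraries. Every biotin-positive library lay below every other library, and the level was 2.32-fold lower than in the biotin-negative group (log2 -1.21 ± 0.18 SE, adjusted p = 0.000387). The log2 difference was -1.13 with the macrophage covariate, -1.13 with detected genes and -0.28 with the Langerhans covariate. Slc3a2 (CD98), the heavy chain that pairs with Slc7a11 and other light chains, averaged 168 ± 18.3 CPM in biotin-positive libraries against 203 ± 27.4 CPM in biotin-negative ones and was not called. Slc7a5, the leucine carrier that shares this heavy chain, is outside the normalized table and reached at most 6.73 CPM in any library.

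The RefSeq promoter window of Slc7a11 (GRCm38.p6, chr3:50443564-50443863, minus strand, 250 bases before to 50 after the start) is shown because it holds 2 copies of the amino acid response element core TGATGNAA, the kind of element that ATF4 binds. The capitals mark those copies, which begin at bases 185 and 204 of the window, the second on the opposite strand.
Slc7a11 promoter: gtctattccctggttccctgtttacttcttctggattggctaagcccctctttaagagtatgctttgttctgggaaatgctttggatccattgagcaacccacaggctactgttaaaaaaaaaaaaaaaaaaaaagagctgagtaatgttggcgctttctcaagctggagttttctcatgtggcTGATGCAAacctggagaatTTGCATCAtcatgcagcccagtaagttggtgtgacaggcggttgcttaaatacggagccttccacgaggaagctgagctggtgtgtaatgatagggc
At least 1 copy stands in 3.97% of 32851 RefSeq promoter windows of this length, and 2 or more stand in 23 windows (0.07%). Of 181 windows of members, 6 hold the core (3.31%). The presence of these letters does not say that a factor binds there.

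The member of this class that was higher was Slc6a6, the taurine carrier. It was at 486 to 608 CPM (median 515) in biotin-positive libraries, against 256 to 429 CPM (median 341) in biotin-negative libraries, and 385 and 455 CPM in Cd40-null libraries. The biotin groups did not overlap, and the level was 1.55-fold higher in biotin-positive libraries (log2 0.64 ± 0.11 SE, adjusted p = 0.00155). The arginine and lysine carrier Slc7a1 (CAT1) averaged 9.68 ± 4.40 CPM in biotin-positive, 22.6 ± 10.2 CPM in biotin-negative and 7.49 ± 3.07 CPM in Cd40-null libraries (log2 -1.22 between the biotin groups, adjusted p = 0.0366). The neutral amino acid carrier Slc43a2 (LAT4) averaged 6.94 ± 5.77 CPM in biotin-positive, 22.0 ± 9.60 CPM in biotin-negative and 21.7 ± 7.65 CPM in Cd40-null libraries (log2 -1.67, adjusted p = 0.0435). Both overlapped between the biotin groups, and their calls were lost in 13 and 16 of 28 alternative settings.

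Of the amino acid carriers that did not pass, the glutamine carrier Slc1a5 (ASCT2) was nearest, at 41.8 ± 5.08 CPM in biotin-positive libraries against 60.5 ± 15.2 CPM in biotin-negative ones (adjusted p = 0.0545). Slc38a2 (SNAT2), an amino acid starvation responsive carrier and the member of this class with 83.0 CPM per kb, averaged 345 ± 40.3 CPM in biotin-positive libraries against 417 ± 50.6 CPM in biotin-negative ones. The endolysosomal peptide and histidine carriers Slc15a3 and Slc15a4 had log2 fold changes of -2.40 ± 0.90 and 0.53 ± 0.18 (SE), with adjusted p of 0.124 and 0.0935 in edgeR. Slc15a3 averaged 1.29 ± 1.09 CPM in biotin-positive libraries against 6.82 ± 4.63 CPM in biotin-negative ones. Slc15a4 averaged 96.0 ± 25.2 CPM in biotin-positive libraries against 66.4 ± 14.2 CPM in biotin-negative ones.

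None of the 5 nucleoside and nucleobase carriers was called in edgeR, and none had an unadjusted p under 0.05. All 5 had a negative log2 fold change, from -1.11 to -0.07 with a median of -0.40. Of the 14217 genes tested, 6754 had a positive log2 fold change. The plasma membrane equilibrative carrier Slc29a1 (ENT1) averaged 16.1 ± 7.12 CPM in biotin-positive libraries against 21.2 ± 10.7 CPM in biotin-negative ones. The lysosomal Slc29a3 (ENT3) averaged 72.0 ± 12.3 CPM in biotin-positive libraries against 83.6 ± 27.0 CPM in biotin-negative ones. Among the 5 monocarboxylate carriers, 0 were called in edgeR and 1 had an unadjusted p under 0.05. The lactate carrier Slc16a1 (MCT1) averaged 2.09 ± 2.42 CPM in biotin-positive libraries against 3.64 ± 3.67 CPM in biotin-negative ones. Slc16a3 (MCT4), which exports lactate, averaged 17.7 ± 4.32 CPM in biotin-positive libraries against 15.6 ± 4.48 CPM in biotin-negative ones. Their relative Slc16a14 stood at 16.7 ± 8.40 CPM in biotin-positive libraries against 6.20 ± 5.39 CPM in biotin-negative ones (adjusted p = 0.123).

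Among 22 metal carriers, 3 were lower in biotin-positive libraries and 0 higher, with a class median of 0.04. This is 13.6% of them, against 7.75% of all genes tested. Slc11a1 (NRAMP1) pumps divalent metals out of phagosomes, chiefly but not only in macrophages. It was at 0.186 to 4.67 CPM (median 0.706) in biotin-positive libraries, against 8.04 to 38.7 CPM (median 12.4) in biotin-negative libraries, and 3.41 and 5.51 CPM in Cd40-null libraries. The biotin groups did not overlap, and the log2 fold change was -3.64 ± 0.69 (SE, adjusted p = 0.00300). Without biotin-positive replicate 3, the library at 4.67 CPM, the log2 fold change was -4.70 ± 0.58 (adjusted p = 0.000170). Against Cd40-null libraries it was -1.80 (adjusted p = 0.337), and -2.86 (adjusted p = 0.0316) without that replicate. Biotin-positive libraries had lower summed macrophage markers than biotin-negative ones in every library. Of the 28 tested markers, 15 were lower and 0 higher, against 4.05% lower and 3.7% higher among all genes tested. With the macrophage covariate the log2 difference of Slc11a1 was -1.08 ± 0.83 (adjusted p = 0.817). It was -2.77 ± 1.30 with detected genes and -5.90 ± 1.54 with the Langerhans covariate, and neither passed the test. With the T cell covariate it was -3.58 ± 0.80 (adjusted p = 0.0172). The cause was not tested.

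**Figure D2:**
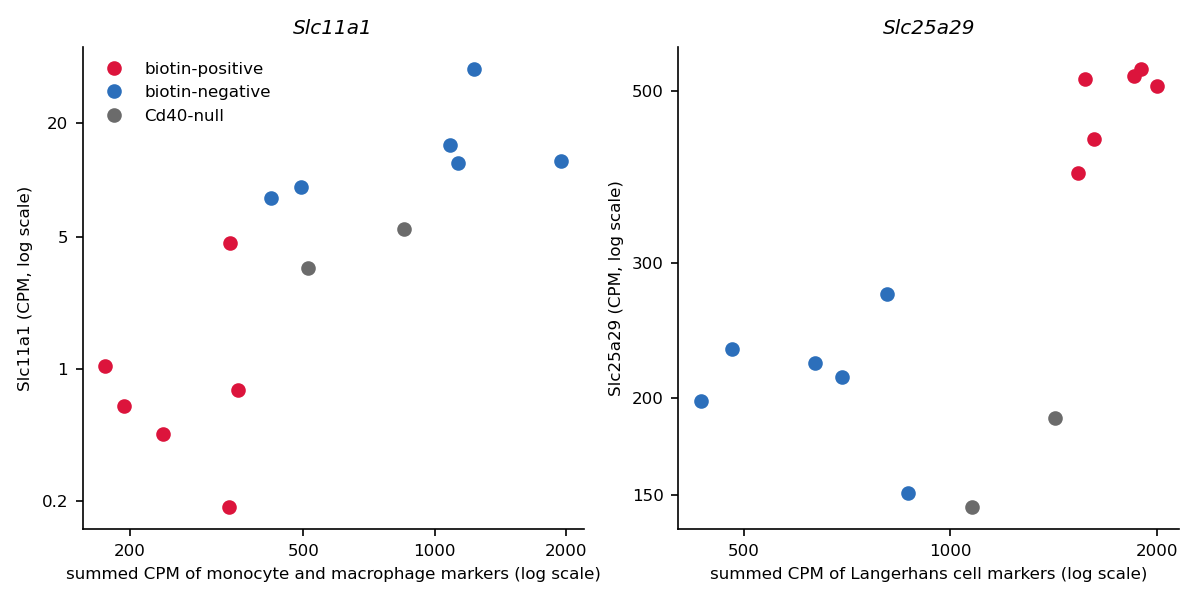
Left, Slc11a1 level against the summed level of monocyte and macrophage markers in each library; right, Slc25a29 level against the summed level of Langerhans cell markers (both axes CPM on a log scale, 1 point per library). Slc25a29 was at 392 to 535 CPM in biotin-positive libraries (1531 to 1996 CPM of Langerhans markers), 151 to 273 CPM in biotin-negative libraries (433 to 867 CPM) and 145 and 188 CPM in Cd40-null libraries (1074 and 1421 CPM).

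The other lower metal carriers were Slc31a2 and Slc41a1. Slc31a2 (CTR2), a copper carrier of endolysosomal membranes, was at 7.07 to 23.4 CPM (median 13.9) in biotin-positive libraries, against 22.9 to 50.3 CPM (median 34.0) in biotin-negative libraries, and 35.1 and 37.8 CPM in Cd40-null libraries. The highest biotin-positive library just overlapped the lowest biotin-negative one (log2 -1.28 ± 0.29 SE, adjusted p = 0.00964). With the macrophage covariate the log2 difference of Slc31a2 was -0.10 ± 0.52 (SE). It was -1.72 ± 0.59 with detected genes, -1.70 ± 0.78 with the Langerhans covariate and -0.99 ± 0.32 with the T cell covariate. None of these passed the test, and the cause was not tested. The magnesium carrier Slc41a1 was at 42.4 to 72.6 CPM (median 57.4) in biotin-positive libraries, against 75.5 to 114 CPM (median 84.1) in biotin-negative libraries, and 53.3 and 59.6 CPM in Cd40-null libraries. The biotin groups did not overlap and the Cd40-null libraries lay within the biotin-positive range (log2 -0.64 ± 0.15 SE between the biotin groups, adjusted p = 0.0146). The iron carrier Slc11a2 (DMT1) was at 11.1 to 26.8 CPM in biotin-positive libraries against 26.8 to 34.4 CPM in biotin-negative ones, with no overlap before rounding and an adjusted p of 0.0660. Slc30a7, which loads zinc into the Golgi, averaged 88.3 ± 19.4 CPM in biotin-positive libraries against 70.0 ± 20.2 CPM in biotin-negative ones and was not called. The iron exporter Slc40a1 is outside the normalized table and was above 0 in 2 libraries only.

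Of the 33 members of the mitochondrial carrier family, 1 was higher and 1 lower in biotin-positive libraries. This is 6.06% of them, against 7.75% of all genes tested, and the class median was -0.08. Slc25a29 (GRCm38 chromosome 12, 108825873 to 108835883, minus strand), which carries arginine, lysine and other basic amino acids across the inner mitochondrial membrane, had the smallest p of all members. It was at 392 to 535 CPM (median 513) in biotin-positive libraries, against 151 to 273 CPM (median 218) in biotin-negative libraries, and 145 and 188 CPM in Cd40-null libraries. Every biotin-positive library lay above all others, and the level was 2.26-fold that of the biotin-negative group (log2 1.17 ± 0.13 SE, adjusted p = 3.01e-05). With T cell markers as a covariate the log2 difference was 1.30 ± 0.16 (SE, adjusted p = 0.000244). It was 0.87 with detected genes, 0.72 with macrophage markers and 0.98 with Langerhans markers, with SEs of 0.25 to 0.37, and none of these 3 passed the test.

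The RefSeq promoter window of Slc25a29 (GRCm38.p6, chr12:108835827-108836126, minus strand) is shown as that of the member with the smallest p. The capitals mark its 6 matches to the NF-kB core GGGNNNNNCC on either strand, of which a pair overlaps at bases 102 and 103.
Slc25a29 promoter: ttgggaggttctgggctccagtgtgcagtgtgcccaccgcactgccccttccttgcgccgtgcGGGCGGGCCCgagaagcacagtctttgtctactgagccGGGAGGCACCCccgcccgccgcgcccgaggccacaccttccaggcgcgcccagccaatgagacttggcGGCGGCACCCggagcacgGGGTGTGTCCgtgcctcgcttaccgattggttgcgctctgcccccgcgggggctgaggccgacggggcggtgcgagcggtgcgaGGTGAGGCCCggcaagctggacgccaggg
These letters are common in windows rich in G and C: 50.8% of all promoter windows hold at least 1 match and 27.4% hold 2 or more. The other motifs searched, on both strands, were the antioxidant response element core TGACNNNGC (12.4% of all windows), the interferon-stimulated response element core GAAANNGAAA (3.44%), the E-box CACGTG (7.15%) and the Spi1 box GAGGAA (28.3%). The Slc25a29 window holds none of these or of TGATGNAA, and the Slc7a11 window holds 1 NF-kB core and 1 Spi1 box, which no capitals mark. Among member windows, 67.4% held the NF-kB core, 17.7% the antioxidant core, 12.2% the E-box, 19.3% the Spi1 box and 1.66% the interferon core. These shares were not corrected for base composition and are a description only.

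Slc25a3, the phosphate carrier that supplies ATP synthesis, was lower in biotin-positive libraries by a small and even amount. It was at 192 to 238 CPM (median 219) in biotin-positive libraries, against 265 to 304 CPM (median 288) in biotin-negative libraries, and 291 and 312 CPM in Cd40-null libraries. All biotin-positive libraries lay below all others, and the level was 1.32-fold lower than in the biotin-negative group (log2 -0.40 ± 0.08 SE, adjusted p = 0.00484). The ADP/ATP carrier Slc25a5 averaged 206 ± 21.6 CPM in biotin-positive, 254 ± 28.7 CPM in biotin-negative and 302 ± 42.5 CPM in Cd40-null libraries, and was not called between the biotin groups (adjusted p = 0.0866). Mitoferrin 1, Slc25a37, averaged 13.8 ± 5.89 CPM in biotin-positive libraries against 20.3 ± 6.66 CPM in biotin-negative ones and was not called.

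**Figure D3:**
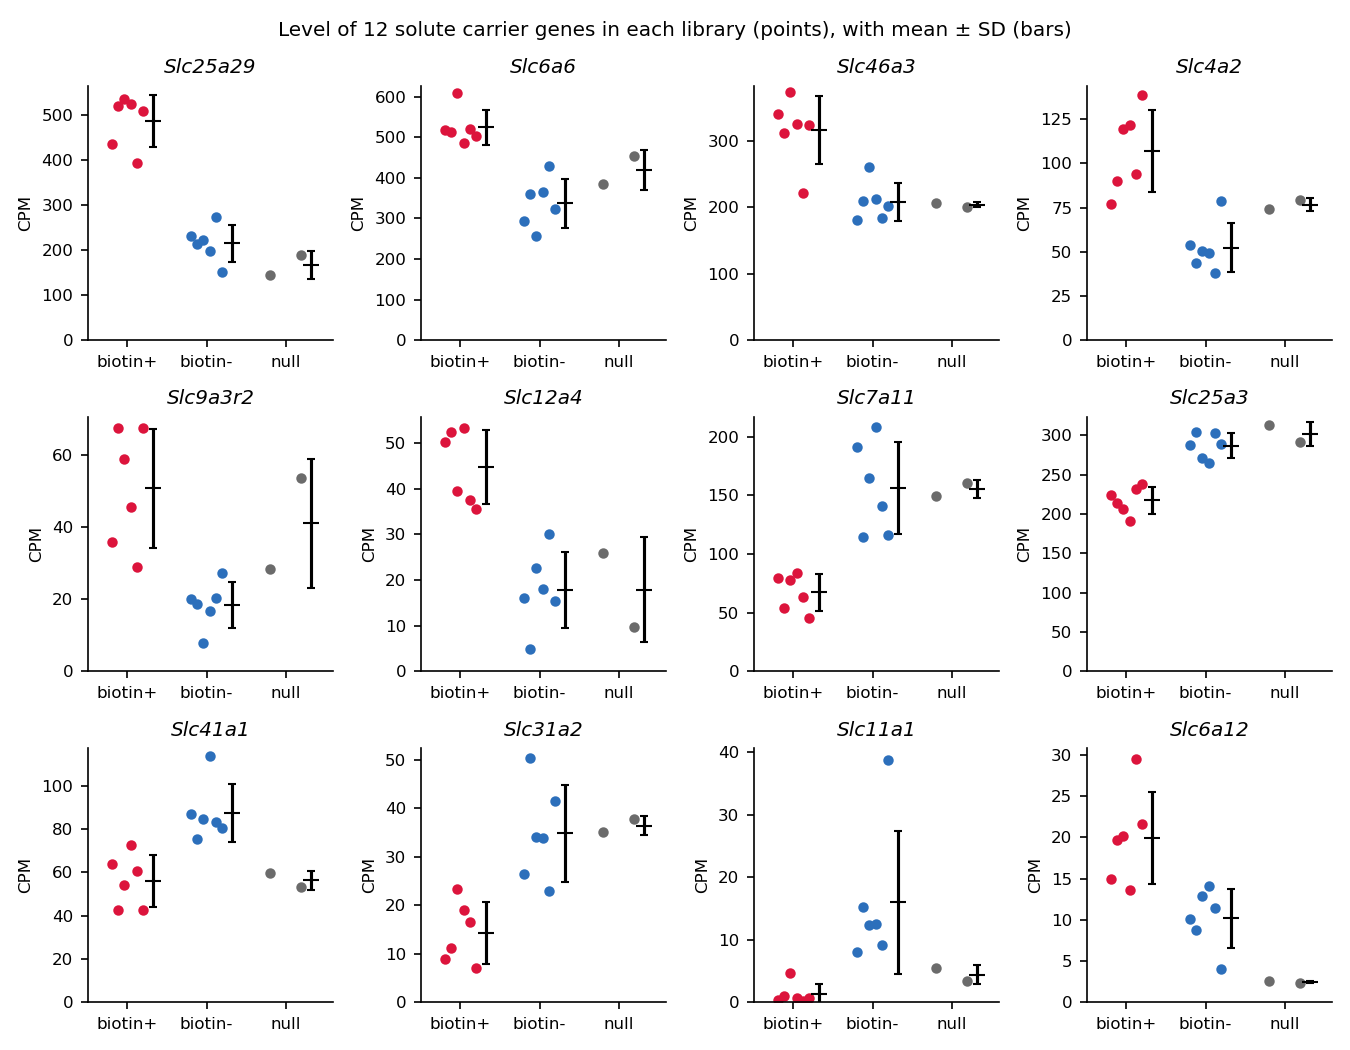
Level (CPM, linear axis from 0) of 12 members in each biotin-positive (red), biotin-negative (blue) and Cd40-null (grey) library, with the mean ± SD of each group as a black bar. Slc25a29 and Slc7a11 separate the biotin-positive libraries from all others, and Slc6a12 ran from 13.6 to 29.5 CPM in biotin-positive libraries and was at 2.37 and 2.58 CPM in Cd40-null libraries.

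Among 20 carriers of inorganic ions, 2 were higher and 2 lower in biotin-positive libraries (class median -0.05). This is 20% of them, against 7.75% of all genes tested. The chloride and bicarbonate exchanger Slc4a2 (AE2) was at 77.2 to 139 CPM (median 107) in biotin-positive libraries, against 38.1 to 78.5 CPM (median 50.1) in biotin-negative libraries, and 74.2 and 79.3 CPM in Cd40-null libraries. Its level was 2.04-fold that of the biotin-negative group (log2 1.03 ± 0.18 SE, adjusted p = 0.00143), and the 2 biotin groups overlapped by 1 library. Exons of Slc4a2 overlap those of Fastk on the opposite strand over 694 bp, and the protocol does not mark strand, so reads of this stretch cannot be assigned to either gene. The same holds for stretches of other called members that opposite-strand genes overlap. These are Slc43a2 (548 bp, Gm45606), Slc12a4 (361 bp, Gm16156), Slc20a1 (315 bp, 9830144P21Rik, and 229 bp, Gm4430) and Slc33a1, given below. The potassium and chloride cotransporter Slc12a4 (KCC1) was at 35.6 to 53.2 CPM (median 44.8) in biotin-positive libraries, against 4.88 to 30.1 CPM (median 17.0) in biotin-negative libraries, and 9.81 and 26.0 CPM in Cd40-null libraries. It did not overlap between the biotin groups (log2 1.33 ± 0.33 SE, adjusted p = 0.0202).

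The sodium phosphate carrier Slc20a1 (PiT1) averaged 103 ± 26.0 CPM in biotin-positive, 154 ± 20.8 CPM in biotin-negative and 161 ± 18.9 CPM in Cd40-null libraries (log2 -0.58 between the biotin groups, adjusted p = 0.0208). The mitochondrial sodium and calcium exchanger Slc24a6 (Slc8b1 in the current nomenclature) averaged 10.5 ± 2.65 CPM in biotin-positive, 22.4 ± 10.3 CPM in biotin-negative and 14.9 ± 3.79 CPM in Cd40-null libraries (log2 -1.09, adjusted p = 0.0308). The call of Slc20a1 was lost in 7 and that of Slc24a6 in 13 of 28 alternative settings. Slc4a8, a sodium-driven chloride and bicarbonate exchanger and the ion carrier with the highest level, averaged 767 ± 121 CPM in biotin-positive libraries against 796 ± 135 CPM in biotin-negative ones and was not called.

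Of the 13 carriers of amines and organic cations, 3 were higher and 0 lower in biotin-positive libraries. This is 23.1% of them, against 7.75% of all genes tested. The class median log2 fold change was 0.74, with 8 members above 0 and 5 below, down to -1.01 for Slc18b1, a carrier of polyamines that was not called. Summed over the class, the level was 226 to 311 CPM in biotin-positive, 181 to 213 CPM in biotin-negative, and 134 and 160 CPM in Cd40-null libraries, with no overlap between any pair of groups. The serotonin carrier Slc6a4 averaged 29.6 ± 15.3 CPM in biotin-positive, 9.03 ± 6.81 CPM in biotin-negative and 15.4 ± 4.11 CPM in Cd40-null libraries (log2 1.72 ± 0.47 SE between the biotin groups, adjusted p = 0.0327). Its biotin groups overlapped, 11 of 28 alternative settings ended the call, and the Langerhans covariate turned it round. The carnitine carrier Slc22a21 averaged 18.5 ± 4.66 CPM in biotin-positive, 8.07 ± 3.32 CPM in biotin-negative and 5.14 ± 0.391 CPM in Cd40-null libraries (log2 1.20 ± 0.31 SE, adjusted p = 0.0226). Slc22a17, a receptor for the iron-binding protein lipocalin 2, lies under the level minimum of 5 CPM used for naming and was named after its values were seen. It was at 3.34 to 15.8 CPM in biotin-positive, 0 to 2.18 CPM in biotin-negative, and 0.207 and 0.563 CPM in Cd40-null libraries (log2 2.84 ± 0.83 SE between the biotin groups, adjusted p = 0.0459). This call was lost in 17 of 28 alternative settings, among them no low-count filter and all 4 covariates.

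Other members of the class did not pass between the biotin groups. The betaine and GABA carrier Slc6a12 averaged 19.9 ± 5.62 CPM in biotin-positive libraries against 10.2 ± 3.57 CPM in biotin-negative ones (adjusted p = 0.0556). The carnitine carrier Slc22a5 (OCTN2) averaged 52.7 ± 13.7 CPM in biotin-positive libraries against 31.6 ± 9.89 CPM in biotin-negative ones (adjusted p = 0.0773). Slc22a23, an orphan member, averaged 92.1 ± 12.5 CPM in biotin-positive libraries against 85.0 ± 18.2 CPM in biotin-negative ones.

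None of the 18 Slc35 members, many of which carry nucleotide sugars into the Golgi and the endoplasmic reticulum, was called in edgeR, and 1 had an unadjusted p under 0.05. Slc35a4 averaged 108 ± 12.6 CPM in biotin-positive libraries against 112 ± 12.5 CPM in biotin-negative ones, and Slc35b4 averaged 65.2 ± 4.28 CPM in the biotin-positive and 60.1 ± 17.8 CPM in the biotin-negative group. Of 19 carriers of vitamins, lipids and other organic solutes, 1 was higher and 1 lower (10.5%, against 7.75% of all genes tested). The lysosomal carrier Slc46a3 was at 222 to 373 CPM (median 324) in biotin-positive libraries, against 182 to 260 CPM (median 206) in biotin-negative libraries, and 201 and 207 CPM in Cd40-null libraries. Its biotin groups overlapped through 1 biotin-positive library (log2 0.60 ± 0.12 SE, adjusted p = 0.00429). Slc33a1, which brings acetyl-CoA into the endoplasmic reticulum, averaged 230 ± 48.0 CPM in biotin-positive, 323 ± 47.9 CPM in biotin-negative and 280 ± 10.0 CPM in Cd40-null libraries (log2 -0.49 between the biotin groups, adjusted p = 0.0263, lost in 11 of 28 alternative settings). It shares 1136 bp of exons with Gm26850 on the opposite strand.

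The rule on symbols also takes in 5 genes that name no carrier, of which 1 passed. Slc9a3r2 (NHERF2) is a scaffold protein that anchors membrane transporters to the cytoskeleton. It was at 29.0 to 67.6 CPM (median 52.3) in biotin-positive libraries, against 7.78 to 27.2 CPM (median 19.4) in biotin-negative libraries, and 28.5 and 53.7 CPM in Cd40-null libraries. The biotin groups did not overlap, and the level was 2.75-fold that of the biotin-negative group (log2 1.46 ± 0.29 SE, adjusted p = 0.00382). Its relative Slc9a3r1 (NHERF1) averaged 116 ± 27.2 CPM in biotin-positive libraries against 90.1 ± 14.3 CPM in biotin-negative ones and was not called.

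The comparisons with Cd40-null libraries ask how DCs of the labelling experiment differ from DCs that lack CD40. Between biotin-positive and Cd40-null libraries, 5 members passed, 2 higher and 3 lower, which is 2.89% of members against 2.27% of all genes tested (1.22% higher and 1.05% lower). Slc25a29 was 392 to 535 CPM in biotin-positive libraries against 145 and 188 CPM in Cd40-null libraries (log2 1.54 ± 0.20 SE, adjusted p = 0.000533), and this call held in all 28 alternative settings. Slc6a12 was at 13.6 to 29.5 CPM (median 19.9) in biotin-positive libraries and at 2.37 and 2.58 CPM in Cd40-null libraries (log2 3.01 ± 0.51 SE, adjusted p = 0.00394). Without Cd40-null replicate 1 or 2, or with the macrophage covariate, the adjusted p of Slc6a12 missed the threshold, with 0.0818 as its highest value.

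The lower members were Slc7a11, Slc25a3 and Slc25a5. Slc7a11 differed from Cd40-null libraries by a log2 fold change of -1.20 ± 0.24 (SE, adjusted p = 0.0109). Slc25a3 had one of -0.47 ± 0.11 (adjusted p = 0.0328), and Slc25a5 one of -0.55 ± 0.14 (adjusted p = 0.0494). The calls of Slc7a11, Slc25a3 and Slc25a5 were lost in 4, 11 and 18 of 28 alternative settings. All 3 lay lower in each of the 6 biotin-positive libraries than in either Cd40-null library. The calls in this comparison chose these genes, so this separation is a description and adds no support. This comparison shares the biotin-positive libraries with the one above, so its agreement on these genes is not independent of it. With 2 Cd40-null libraries, the count of calls was 1 without replicate 2 and 2 without replicate 1.

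Between biotin-negative and Cd40-null libraries, 0 members passed in edgeR, against 0.317% of all genes tested (0.274% higher and 0.0422% lower), and 25 had an unadjusted p under 0.05. DESeq2 called 7 members (6 higher and 1 lower) and limma with voom weights called 0. Slc6a12 had the smallest adjusted p (0.0963), at 4.01 to 14.1 CPM in biotin-negative libraries against 2.37 and 2.58 CPM in Cd40-null libraries. Slc25a29 was at 151 to 273 CPM in biotin-negative libraries and 145 and 188 CPM in Cd40-null libraries, ranges that overlapped. Slc7a11 was at 114 to 209 CPM in biotin-negative libraries, which spans the 150 and 161 CPM of the Cd40-null libraries.

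**Figure D4:**
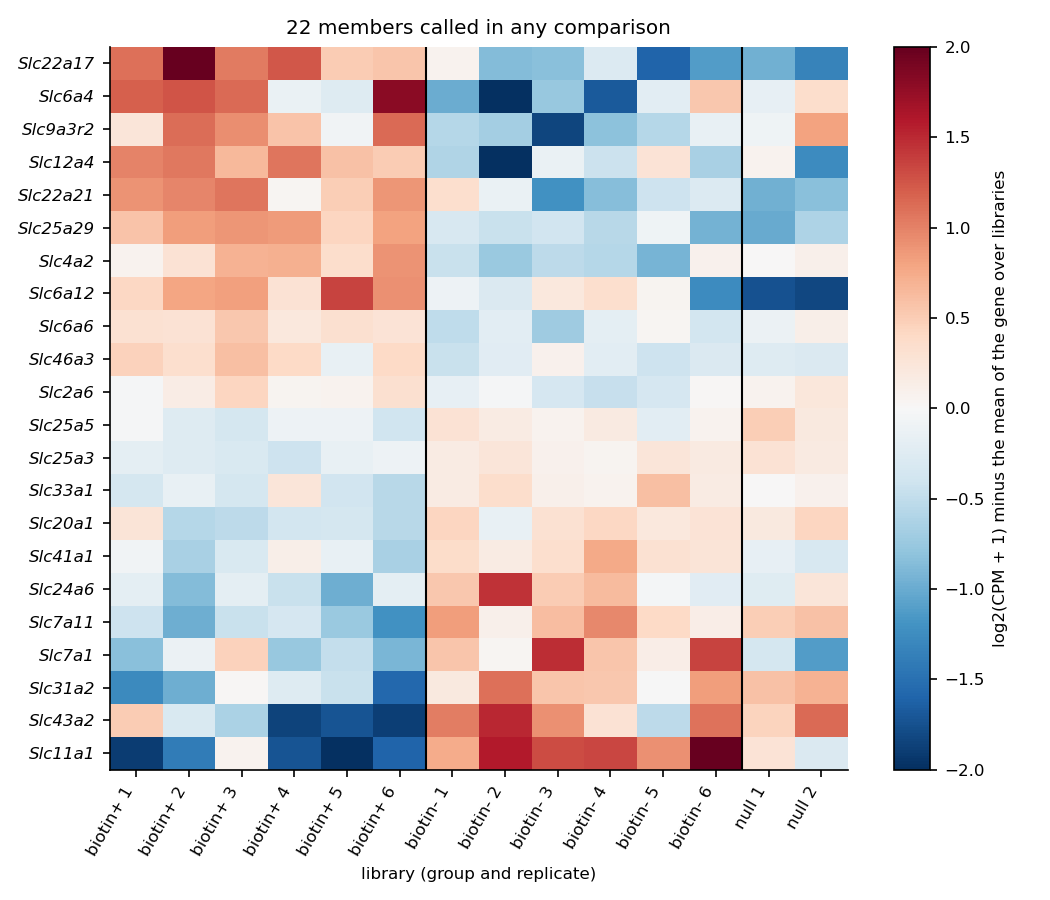
Log2(CPM + 1) of the 22 members called in any comparison, minus each gene's mean over the 14 libraries (columns by group, red above and blue below the mean, colours capped at 2), ordered by the fold change between the biotin groups. The calls chose these genes, so the contrast of the biotin blocks is given by the selection; the 2 Cd40-null columns resemble the biotin-negative block for Slc25a29 and Slc7a11 and the biotin-positive block for Slc41a1.

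Genes around the carriers were read from 5 lists, which were not tested as sets. Between the biotin groups, 7.75% of all genes tested were called (3.7% higher and 4.05% lower), and the counts below stand beside these shares. Of 36 tested carriers known under other symbols, 1 was higher and 0 lower between the biotin groups, namely the PQ-loop protein gene Pqlc1 at 62.7 ± 15.7 CPM in biotin-positive libraries against 37.4 ± 7.95 CPM in biotin-negative ones (adjusted p = 0.0229). Of 3 tested accessory subunits, Emb (embigin), a chaperone of monocarboxylate carriers, was lower at 6.19 ± 4.27 CPM in biotin-positive libraries against 21.5 ± 7.60 CPM in biotin-negative ones (adjusted p = 0.0203).

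In the list of iron, zinc and copper handling, 2 of 21 tested genes were higher and 2 lower in biotin-positive libraries, with a median log2 fold change of -0.38. Transferrin, Trf, averaged 286 ± 27.0 CPM in biotin-positive, 177 ± 32.5 CPM in biotin-negative and 141 ± 3.46 CPM in Cd40-null libraries (adjusted p = 0.00162 between the biotin groups and 0.00592 against Cd40-null). Aco1, the aconitase that doubles as an iron regulatory protein, averaged 285 ± 48.4 CPM in biotin-positive libraries against 150 ± 45.7 CPM in biotin-negative ones (adjusted p = 0.00557). Hfe, a regulator of iron uptake, averaged 7.80 ± 2.65 CPM in biotin-positive libraries against 21.7 ± 9.62 CPM in biotin-negative ones (adjusted p = 0.0111), and the metallothionein Mt1 averaged 52.6 ± 15.7 CPM in biotin-positive libraries against 86.0 ± 25.1 CPM in biotin-negative ones (adjusted p = 0.0388).

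In the list of amino acid sensing and the ATF4 response, 2 of 28 tested genes were higher and 0 lower, with a median of -0.06. This count is near the 7.75% of all genes called between the biotin groups. The leucine sensor Sesn2 averaged 87.9 ± 12.5 CPM in biotin-positive, 36.4 ± 10.3 CPM in biotin-negative and 41.2 ± 8.71 CPM in Cd40-null libraries (log2 1.27 ± 0.18 SE between the biotin groups, adjusted p = 0.000236; log2 1.09 against Cd40-null, adjusted p = 0.0389). Mthfd2, an enzyme of mitochondrial folate metabolism, averaged 268 ± 63.1 CPM in biotin-positive libraries against 155 ± 18.4 CPM in biotin-negative ones (adjusted p = 0.00243). In the glutathione and NRF2 list, whose genes make or use the glutathione that cystine feeds, 1 of 16 tested genes was higher and 0 lower, also near the share of all genes. That gene, thioredoxin Txn1, averaged 241 ± 46.0 CPM in biotin-positive libraries against 159 ± 40.7 CPM in biotin-negative ones (adjusted p = 0.0345). Against Cd40-null libraries, Trf and Sesn2 were the only genes of the 5 lists called in biotin-positive libraries, and 0 were called in biotin-negative libraries. Of all genes tested, 2.27% and 0.317% were called in these comparisons.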

How the data were processed

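Per the labels, Smart-seq2 libraries of polyadenylated RNA were read as 38 bp pairs. The deposited table of expected counts covers 23420 gene symbols and was made with Bowtie2 2.1.0, RSEM 1.2.8 and DESeq2 1.16.0 on mm10, per the submitters' processing notes, which do not give each tool's role. The deposited normalized signal of 10321 genes is each count over a constant of its library (largest relative deviation 5.11e-15 over 10318 symbols); how its genes were chosen is not given in the sources used here. No column of other samples was present.

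Expected counts were rounded and tested in R 4.3.3 with edgeR 4.0.16: filterByExpr by group (min.count 10, which kept 14217 genes and all 173 members), TMM factors, and 1 robust glmQLFit of all 14 libraries, with glmQLFTest two-sided. Calls are at a Benjamini-Hochberg false discovery rate of 0.05 over all genes tested, and every adjusted p is edgeR's unless another tool is named. SE is the absolute log2 fold change over the square root of F; ± without SE is the SD (n = 6, 6 and 2). Positions and lengths are GENCODE M21 (GRCm38), with 173 members matched, 1 by a synonym. Promoter windows are RefSeq's (19 of 22 called members and 135 members had one). The fit was tested on simulated data.

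Named members were those called at a mean of at least 5 CPM, those called against Cd40-null, the 2 most abundant of each class and a list of well-known carriers. Members, classes and lists were chosen with earlier results of these data known. Alternatives used DESeq2 1.42.0, limma 3.58.1, other scalings and filters, covariates, the normalized signal on a log2 scale, the replicate number as a block, and left out each library.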

Additional observations from a re-analysis of the deposited data

Results flagged for a closer look

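Over 43 named members, the highest and lowest library of both biotin groups was compared with the rest of its group by Dixon's criterion at 95%. Of 86 such comparisons 8 stood apart, all 8 as the highest library. Chance alone sets about 1 in 20 apart where values are normally distributed. The CPM were not put on a log scale, so that rate may not hold here. In biotin-positive replicate 3, 3 members were high: Slc11a1 at 4.67 CPM (the other libraries 0.186 to 1.04), Slc2a3 at 5.59 CPM (0 to 1.77) and Slc6a6 at 608 CPM (486 to 521). In biotin-negative replicate 6, Slc11a1 was at 38.7 CPM (8.04 to 15.3) and Slc1a5 at 89.0 CPM (43.2 to 60.2). Slc20a1 was at 155 CPM in biotin-positive replicate 1 (86.5 to 100.4), Slc2a1 at 33.5 CPM in biotin-negative replicate 3 (15.6 to 20.8), and Slc41a1 at 114 CPM in biotin-negative replicate 4 (75.5 to 86.8). Their causes were not tested.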

How the results depend on the processing

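The 20 calls between the biotin groups were 18 to 27 under other scalings, filters, limma fits and the 2 groups alone, 35 with DESeq2, 8 with the T cell marker covariate, and 0 with the detected gene, macrophage or Langerhans covariate, the last chosen after the data were seen. Leaving out 1 library gave 12 to 22 (12 without biotin-positive replicate 2 and 13 without replicate 6). With the Langerhans covariate, 2 called members turned round, Slc2a6 at -0.10 and Slc6a4 at -0.78; the cause was not tested. Slc25a29, Slc7a11, Slc4a2, Slc6a6, Slc11a1, Slc9a3r2, Slc46a3 and Slc25a3 kept their calls in 25 of 28 settings and lost them under those 3 covariates.

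The 5 calls between biotin-positive and Cd40-null libraries became 3 without a filter, 18 with DESeq2, 11 with voom, 13 and 14 on the normalized signal with pseudocounts 1 and 10, and 2 with either the macrophage or the Langerhans covariate. Leaving out 1 library gave 1 to 8 (1 without Cd40-null replicate 2, 2 without Cd40-null replicate 1, 3 without biotin-positive replicate 2, and 8 without biotin-positive replicate 5). Between biotin-negative and Cd40-null libraries the count was 7 with DESeq2, 0 to 1 with 1 library left out, and 0 otherwise. Where 1 Cd40-null library was left, it was assumed to vary like the other groups.

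No pairing by replicate number was detected: same-numbered biotin-positive and biotin-negative libraries had deviations correlated at -0.02 to 0.01, and 1 of 6 correlated best with its own number. A correlation near 0 does not show that same-numbered libraries share no mouse or sort day, and the labels do not say. The replicate block gave 16 calls between the biotin groups, 3 between biotin-positive and Cd40-null libraries, and 0 between biotin-negative and Cd40-null libraries.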

Other observations

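Among the 196 solute carrier symbols outside the normalized table, 77 could be tested and 13 were at 0 in every library. Between the biotin groups 0 of the 77 were higher and 2 lower in biotin-positive libraries, against 3.7% higher and 4.05% lower among all genes tested. Slc2a12, a glucose carrier, was at 0 in 5 of 6 biotin-positive libraries and reached 3.84 CPM in biotin-negative ones. Slc26a4, an anion exchanger, was at 0 in all biotin-positive libraries and reached 3.42 CPM in biotin-negative ones. Both were at 0 in both Cd40-null libraries, so fitted fold changes are not given. The low-count filter could keep these 2 genes only with the help of biotin-negative libraries. The direction of their calls was therefore set by the filter, and the calls are a description only. They were named after their values were seen.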
